A study of Mus musculus with 6 samples.

Results

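The collagens, laminins and matrix glycoproteins of cultured mouse neural stem and progenitor cells were followed across 3 groups of RNA sequencing libraries. Genes were chosen by name, under a rule set with earlier results of these data known: every collagen chain gene (Col, a number, a, a number), every laminin chain gene (Lama, Lamb, Lamc), and the 12 genes Fn1, Tnc, Sparc, Dcn, Bcan, Ncan, Vcan, Nid1, Nid2, Hspg2, Agrn and Thbs1. A summed expected count of 15 or more over the 6 libraries was also required. This gave 47 genes of 17254 gene identifiers listed, namely 26 collagens, 9 laminins and the 12 others. Of 67 matching names in the annotation, 63 were listed in the tables and 16 of these fell under the minimum. The count minimum lay between Col20a1, with a summed expected count of 16, and Col2a1, with 14.

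The groups were cells given PQ for 48 h, cells given NAC for 48 h and a control, with 2 libraries each. All cultures were in N2 medium with EGF and bFGF, and per the series text the treatments were meant to shift the redox potential inside the cells. The labels spell out neither PQ nor NAC, give no dose, and name no mouse strain, age or sex. Nor do they say if each library is its own culture, and the p-values therefore rest on a spread between libraries that may be technical only.

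The extracellular matrix is the secreted scaffold around cells. Basement membranes are thin sheets built from a laminin network and a type IV collagen network that nidogens, perlecan and agrin link together. Fibrillar collagens form rope-like fibres, while glycoproteins such as fibronectin and tenascin C, and the lecticans brevican, neurocan and versican, fill the space between. In the developing brain, neural stem cells contact a laminin-rich matrix through integrins, and tenascin C and the lecticans are abundant around progenitors and glia.

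The summed expected counts were 9680436 to 10698241 per library. No library repeated another within counting error: chi-square divided by its degrees of freedom was 4.07 to 6.77 for the pairs within a group and 14.65 to 37.28 for pairs across groups. Of 13 neural stem cell and radial glia markers 11 had a mean of at least 5 CPM (a gene's reads as a share of its library, with TMM factors), while Prom1 and Hes5 were under 1 CPM. Their summed level was 6623 to 6899 CPM in PQ, 4565 to 4641 CPM in NAC and 6282 to 6379 CPM in control libraries, most of it from Vim, which was lower with NAC than in control (log2 fold change -0.76, adjusted p = 5.67e-06). Of the 11 tested genes of this list, 1 rose and 4 fell in PQ against control, and 1 rose and 3 fell in NAC against control. Over all genes tested, 17.9% were called in each comparison with control. Of 7 astrocyte markers 6 had a mean of at least 5 CPM, with sums of 611 to 666 CPM in PQ, 552 to 558 CPM in NAC and 530 to 535 CPM in control libraries. Gja1 carries most of that sum and fell with NAC (log2 fold change -0.43, adjusted p = 0.00237), while 4 of the 7 astrocyte markers rose with NAC, namely Aqp4 (1.76, adjusted p = 1.53e-05), Gfap (1.23, adjusted p = 0.000342), Aldoc (1.09, adjusted p = 4.99e-07) and Slc1a2 (0.65, adjusted p = 0.000243). Against control the median log2 fold change of the astrocyte list was 0.22 with PQ and 1.09 with NAC. Olig1 was at 711 to 1179 CPM and Olig2 at 664 to 858 CPM while Sox10 was at 0 or under 0.1 CPM, and the oligodendrocyte lineage list summed to 1582 to 1782 CPM in PQ, 1914 to 2138 CPM in NAC and 1590 to 1807 CPM in control libraries. The neuron list, with Map2 as its only gene at 5 CPM or more, summed to 184 to 194 CPM in PQ, 320 to 360 CPM in NAC and 199 to 209 CPM in control libraries.

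Cells that are rich sources of collagen in the brain, such as fibroblasts and vascular cells, were looked for by their markers. In the fibroblast and meningeal list, 6 of 13 markers were under 1 CPM, among them Lum, Thy1 and Twist2. Prrx1 was at 449 and 432 CPM in PQ, 292 and 284 CPM in NAC, and 452 and 523 CPM in control libraries, and the whole list summed to 545 to 553 CPM in PQ, 428 to 443 CPM in NAC and 567 to 629 CPM in control libraries. Prrx1 makes up most of that sum and was the only one of the 8 tested markers called lower with NAC (-0.76, adjusted p = 1.48e-05), while Ptgds (1.23, adjusted p = 0.000117), Pdgfra (0.40, adjusted p = 0.0123) and Foxd1 (0.54, adjusted p = 0.0322) were called higher, and the median of the list was 0.37. With PQ, 2 of these 8 were called higher (Ptgds and Dcn, a member), with a list median of -0.11. Of the endothelial markers 10 of 11 were under 1 CPM, all except Flt1, and the list summed to 108 to 124 CPM in PQ, 86.5 to 106 CPM in NAC and 82.6 to 87.4 CPM in control libraries. Pericyte and smooth muscle markers were under 1 CPM in 8 of 11 cases, with Pdgfrb at 0 in 5 of 6 libraries, and summed to 70.9 to 84.9 CPM in PQ, 42.9 to 61.8 CPM in NAC and 46.6 to 59.9 CPM in control libraries, mostly from Notch3. Among the low ones, Myh11 had 2.39 and 6.56 CPM in PQ, 1.85 and 6.04 CPM in NAC, and 0.910 and 0.519 CPM in control libraries, and Acta2 had 1.04 and 2.00 CPM in PQ, 0.927 and 1.29 CPM in NAC, and 0.101 and 0.312 CPM in control libraries. Myh11 was called higher than control with PQ (2.64, adjusted p = 0.00574) and with NAC (2.43, adjusted p = 0.0105), as was Acta2 (2.83, adjusted p = 0.00795, and 2.36, adjusted p = 0.0316). Both genes passed the filter on low counts (1.003 CPM) through PQ and NAC libraries only, which favours calls of higher than control. Whether these calls hold without 1 library was not checked. All 6 tested markers of this list had estimates above 0 in PQ against control, 3 of them called, and 5 of 6 in NAC against control, 2 of them called. Myh11 and Acta2 are among these calls in both comparisons. The share called over all genes tested was 17.9% in each comparison with control. The microglia and blood cell list summed to at most 12.9 CPM, and the choroid plexus and ependymal list to at most 19.1 CPM, in any library. These lists moved with the groups, and their part in the matrix results was not tested. In bulk RNA, fewer cells of a type and less RNA per cell cannot be told apart.

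Setting genes beside each other per length, in TPM (the deposited FPKM rescaled to the same sum in every library), Sparc stood first at a mean of 777 TPM over the 6 libraries. SPARC is a collagen-binding glycoprotein of the matrix. Next came Fn1 (fibronectin) at 198 TPM, Tnc (tenascin C) at 173 TPM, Lamc1 at 153 TPM, Lamb1 at 145 TPM and the lectican gene Bcan at 144 TPM. In all, 15 of the 47 genes were at 50 TPM or more and 17 were under 1 TPM. The members took 0.611% and 0.619% of all counts in PQ, 0.463% and 0.512% in NAC, and 0.614% and 0.565% in control libraries. Both NAC libraries were thus below the other 4 in this share. In every library the glycoprotein genes of the set (Sparc, Fn1, Tnc and Thbs1) had the largest sum of the 8 roles, at 1340 and 1338 TPM in PQ, 725 and 758 TPM in NAC, and 1427 and 1302 TPM in control libraries.

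**Figure D1:**
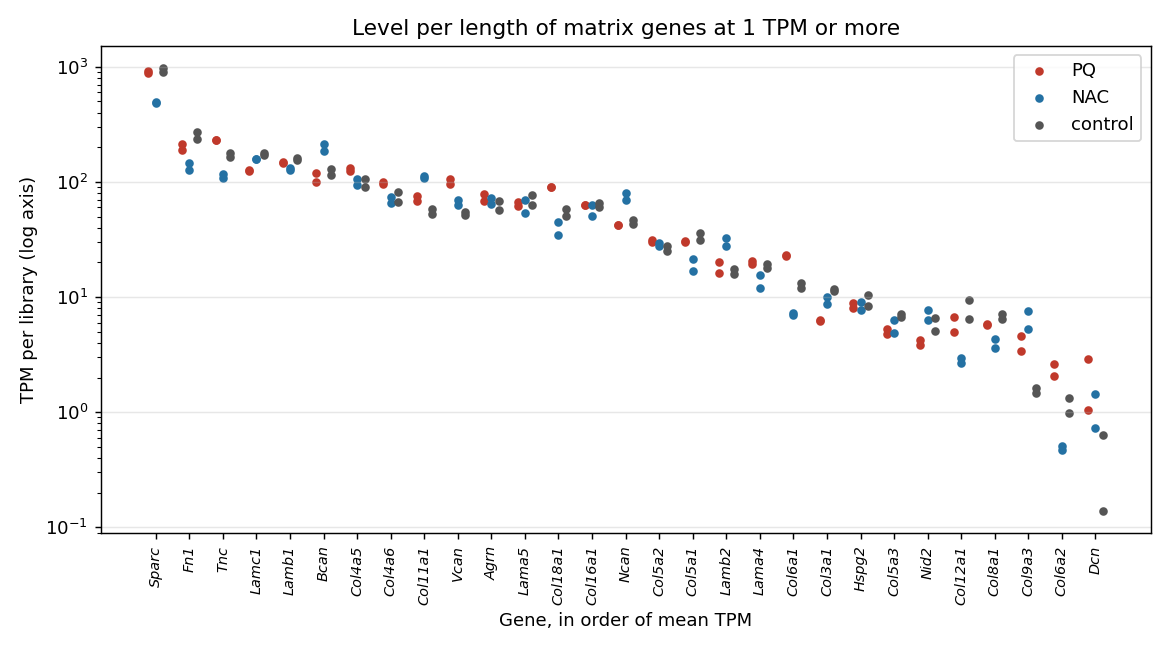
Level of 29 matrix genes with a mean of 1 TPM or more, 1 point per library on a log axis, in order of the mean, with PQ left, NAC in the middle and control right of each position. Sparc stands first at a mean of 777 TPM, and Dcn last at 1.15 TPM.

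The 37 members that passed the filter on low counts were tested in all 3 comparisons, with p-values adjusted over all 12813 genes tested and a threshold of 0.05. With PQ, 15 members passed against control, 10 higher and 5 lower, which is 40.5% of the 37. Over all genes tested the share was 17.9%, with 9.07% higher and 8.8% lower. With NAC, 18 members passed against control, 6 higher and 12 lower, or 48.6%. All genes gave 17.9%, with 8.65% higher and 9.26% lower. Both comparisons use the same control libraries, so they are not independent of each other. Setting PQ against NAC, 22 members passed, 14 higher and 8 lower, or 59.5%, where all genes gave 30.6%, with 15.5% higher and 15.1% lower.

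The filter keeps a gene that is high in 1 group only, and Thbs1 passed it through the NAC libraries alone. Dcn and Col1a2 passed on the strength of 1 PQ and 1 NAC library. Col4a2 and Col6a2 passed through PQ and control libraries only, which favours calls of NAC lower than these groups. Among the 26 members with a mean of at least 5 CPM over all libraries, 12 passed in PQ against control, 14 in NAC against control and 20 in PQ against NAC. Over all 10787 genes with that mean the shares were 19.7%, 19.4% and 32.6%, against 46.2%, 53.8% and 76.9% of these members. The median log2 fold change of the 37 members was -0.03 in PQ against control, -0.24 in NAC against control and 0.20 in PQ against NAC, and that of all genes was within 0.01 of 0 in each.

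Members fell into several patterns. Tnc, Col18a1, Col6a1 and Col6a2 were higher with PQ and lower with NAC than in control, and Fn1 was lower with both. Col11a1 and Col9a3 were higher with both. Vcan, Col4a5, Col4a6 and Dcn passed as higher with PQ only, and Lamc1, Col3a1, Col5a3 and Nid2 as lower with PQ only. With NAC alone Bcan, Ncan, Lamb2 and Thbs1 passed as higher, and Sparc, Lamb1, Col5a1, Lama4, Col12a1, Col8a1 and Col4a2 as lower. The remaining 11 tested members passed in neither. A gene that passed in 1 comparison and not in the other is not thereby shown to differ between PQ and NAC. The direct comparison of PQ with NAC tests that. Dcn (0.95 ± 0.57, adjusted p = 0.231), Col5a3 (-0.11 ± 0.17, adjusted p = 0.648), Col4a2 (1.00 ± 0.47, adjusted p = 0.114) and Col9a3 (-0.63 ± 0.24, adjusted p = 0.0583) did not pass it. For the other genes that passed against control its value is given below. Leaving out library 2 of PQ brought the PQ count to 7 of 40 tested members, 5 higher and 2 lower, with 6.36% of all genes called. The number higher in PQ against control also fell without library 2 of control, and the number lower without library 1 of control. The number lower in PQ against NAC fell without library 2 of PQ or library 1 of NAC. In each of these fits the share of all genes called fell as well.

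**Figure D2:**
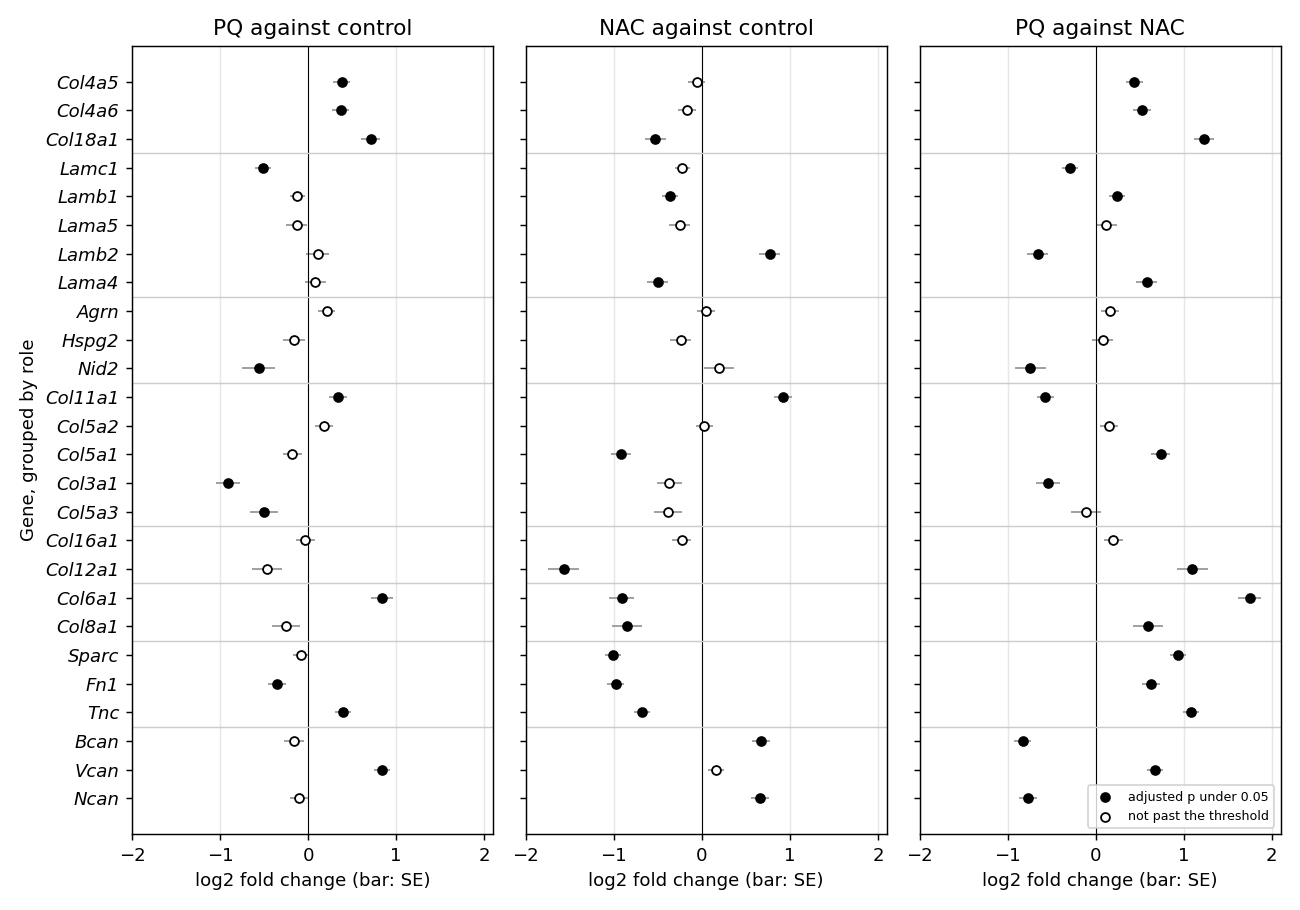
log2 fold change of the 26 members with a mean of at least 5 CPM in each comparison, with bars for the standard error and filled points for adjusted p under 0.05; lines separate the roles. Col6a1 reaches 1.75 in PQ against NAC, the highest point plotted, and Col12a1 stands at -1.57 in NAC against control, the lowest.

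Among the basement membrane collagens, which make the type IV network and its associated chains, Col4a5, Col4a6 and Col18a1 were well above the rest. Col4a5 was at a mean of 109 TPM and Col4a6 at 80.3 TPM, while Col4a1 was at 0.891 TPM and Col4a2 at 0.567 TPM. Col4a1 and Col4a2 encode the chains of the most widespread type IV collagen, and Col4a5 and Col4a6 encode chains found in fewer basement membranes. Each pair lies head to head. Col4a5 (chromosome X, 141475370 to 141689236, GRCm38) and Col4a6 (chromosome X, 141165403 to 141474095) have RefSeq starts 1343 bases apart, and Col4a1 (chromosome 8, 11198423 to 11312889) and Col4a2 (chromosome 8, 11312805 to 11449287) have starts 21 bases apart.

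The promoter windows of these pairs are shown because the members of a pair lie side by side but the pairs differ in level. The distances given above are between the starts used for these windows, which can differ from the gene bounds given there. Each window runs from 250 bases before to 50 bases after the start, from RefSeq on GRCm38.p6, 5′ to 3′ on the gene's own strand. Capitals mark, on either strand, the letters TATAAA as the TATA box, CCAAT as the box of that name, GGGCGG as the GC box, TGANTCA as the AP-1 site and TGACNNNGC as the antioxidant response element core. The Col4a1 window is chr8:11312777-11313076 on the minus strand, that of Col4a2 is chr8:11312555-11312854 on the plus strand, that of Col4a5 is chrX:141475169-141475468 on the plus strand and that of Col4a6 is chrX:141474027-141474326 on the minus strand.
Col4a5: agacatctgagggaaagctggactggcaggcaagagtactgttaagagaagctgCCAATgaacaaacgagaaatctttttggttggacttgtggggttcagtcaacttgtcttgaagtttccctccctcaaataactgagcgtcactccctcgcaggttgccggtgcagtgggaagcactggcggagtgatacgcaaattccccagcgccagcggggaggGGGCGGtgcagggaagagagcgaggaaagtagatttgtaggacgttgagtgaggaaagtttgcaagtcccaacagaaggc
Col4a6: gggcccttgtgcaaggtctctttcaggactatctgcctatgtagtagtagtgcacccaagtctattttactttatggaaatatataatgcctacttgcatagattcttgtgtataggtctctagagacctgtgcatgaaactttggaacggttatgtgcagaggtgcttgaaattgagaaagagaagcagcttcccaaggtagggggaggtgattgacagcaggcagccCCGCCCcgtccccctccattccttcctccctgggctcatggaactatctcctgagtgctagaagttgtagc
Col4a1: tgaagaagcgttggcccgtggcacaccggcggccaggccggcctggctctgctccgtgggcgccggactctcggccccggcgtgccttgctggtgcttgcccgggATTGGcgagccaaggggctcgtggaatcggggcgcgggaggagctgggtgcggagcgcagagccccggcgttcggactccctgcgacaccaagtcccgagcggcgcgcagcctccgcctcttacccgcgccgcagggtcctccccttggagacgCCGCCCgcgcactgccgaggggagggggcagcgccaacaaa
Col4a2: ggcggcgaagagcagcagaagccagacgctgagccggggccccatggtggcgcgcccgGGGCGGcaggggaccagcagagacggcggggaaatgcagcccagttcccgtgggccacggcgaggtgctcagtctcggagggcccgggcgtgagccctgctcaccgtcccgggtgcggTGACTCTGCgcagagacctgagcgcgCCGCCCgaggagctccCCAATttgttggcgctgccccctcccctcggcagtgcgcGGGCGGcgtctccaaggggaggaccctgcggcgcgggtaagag

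The windows of Col4a1 and Col4a2 overlap by 78 bases, and their G and C content was 74.0% and 73.7%. The windows of Col4a5 and Col4a6 do not overlap and held 52.7% and 48.3% G and C. A GC box was found in all 4 windows, once in each except 3 times in Col4a2. It is present in 35.7% of all 32851 windows in the table, and in 30 of the 40 windows that belong to 35 of the 47 members. A CCAAT box was found in the windows of Col4a1, Col4a2 and Col4a5, against 37.4% of all windows. The Col4a2 window had 1 match to the antioxidant response element core, a sequence bound by NRF2, which 12.4% of all windows hold. None of the 4 had the TATA box (13.6% of all windows) or the AP-1 letters (7.81%). A match describes the letters only.

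Col4a5 had 362 and 376 CPM in PQ, 258 and 288 CPM in NAC, and 303 and 266 CPM in control libraries. It was higher with PQ than in control by 0.38 ± 0.10 on the log2 scale (SE, adjusted p = 0.0112) and than with NAC by 0.44 ± 0.10 (adjusted p = 0.00206). Both PQ libraries lay above the other 4, and NAC and control overlapped (-0.06 ± 0.10, adjusted p = 0.725). Col4a6 had 282 and 288 CPM in PQ, 185 and 209 CPM in NAC, and 240 and 202 CPM in control libraries. Its log2 fold changes were 0.37 ± 0.10 in PQ against control (adjusted p = 0.0177), 0.53 ± 0.10 in PQ against NAC (adjusted p = 0.000612) and -0.17 ± 0.10 in NAC against control (adjusted p = 0.296). The ratio of Col4a5 to Col4a6 in TPM stayed close in every library, at 1.32 and 1.34 in PQ, 1.44 and 1.41 in NAC, and 1.30 and 1.36 in control. The PQ calls against control were lost without library 2 of PQ (adjusted p = 0.12 for Col4a5 and 0.14 for Col4a6) or of control (0.097 and 0.16), and for Col4a6 also without library 1 of PQ (0.072).

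Col18a1 encodes type XVIII collagen, a basement membrane proteoglycan whose end fragment is endostatin (chromosome 10, 77052178 to 77166530). It had 203 and 198 CPM in PQ, 74.4 and 96.2 CPM in NAC, and 130 and 115 CPM in control libraries. The 3 groups did not overlap, with PQ highest and NAC lowest. The log2 fold changes were 0.71 ± 0.11 in PQ against control (adjusted p = 0.000319), -0.53 ± 0.12 in NAC against control (adjusted p = 0.00339) and 1.23 ± 0.11 in PQ against NAC (adjusted p = 3.19e-07). Without library 1 of NAC the NAC difference from control was -0.35 (adjusted p = 0.093).

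Of the low type IV chains, chosen for mention after their values were seen, Col4a1 had 1.67 to 3.07 CPM over all libraries and passed in no comparison. Col4a2 had 1.77 and 1.52 CPM in PQ, 0.927 and 0.693 CPM in NAC, and 1.82 and 2.91 CPM in control libraries. NAC was below control without overlap (-1.52 ± 0.44, adjusted p = 0.0208), but the call was lost without either NAC library (0.082 and 0.15), without library 2 of control (0.22) and by DESeq2 (0.11). Col4a4 and Col7a1, the anchoring fibril collagen, were under 0.5 TPM. Exons of Col4a1 and Col4a2 overlap on opposite strands by 0.295% and 0.332% of their bases, and whether counting used the strand is not given in the sources used here.

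**Figure D3:**
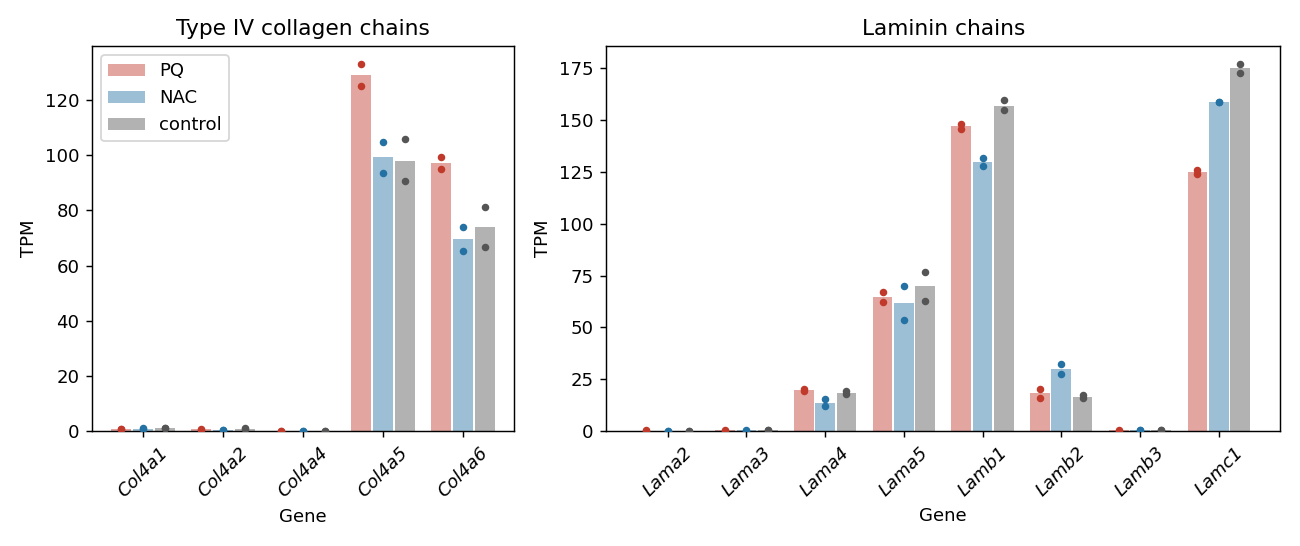
TPM of the type IV collagen chains (left) and the laminin chains (right) among the members, with bars for group means and points for the 2 libraries of PQ, NAC and control in that order. Col4a5 and Col4a6 carry nearly all of the type IV collagen signal, and Lamb2 is highest in NAC at 30.0 TPM.

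Laminins are trimers of 1 alpha, 1 beta and 1 gamma chain. In these cells Lama5 (65.4 TPM) and Lama4 (17.4 TPM) were the alpha chain genes above 1 TPM, Lamb1 (145 TPM) and Lamb2 (21.6 TPM) the beta chain genes, and Lamc1 (153 TPM) encodes a gamma chain. Of the 7 laminin genes tested, PQ against control gave 1 call (lower), NAC against control 3 (1 higher and 2 lower) and PQ against NAC 4 (2 in each direction). These are 14.3%, 42.9% and 57.1%, against 17.9%, 17.9% and 30.6% of all genes tested, so the PQ count against control is no larger than that of genes at large.

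Lamc1, the gamma chain of most laminins (chromosome 1, 153218922 to 153332786), had 422 and 420 CPM in PQ, 515 and 515 CPM in NAC, and 598 and 601 CPM in control libraries. It was lower with PQ than in control by a log2 fold change of -0.51 ± 0.09 (adjusted p = 0.000466). The NAC value against control, -0.22 ± 0.09, missed the threshold (adjusted p = 0.082). The libraries did not overlap, but with 2 libraries a group that is weak evidence of a difference, here and for the other genes. PQ against NAC gave -0.29 ± 0.09 (adjusted p = 0.015), a call lost when any PQ or NAC library was left out (adjusted p = 0.067 to 0.097). The ratio of Lamc1 to the sum of Lamb1 and Lamb2 in TPM was 0.754 and 0.758 in PQ, 0.997 and 0.992 in NAC, and 1.03 and 0.989 in control libraries, so both PQ libraries were below the other 4.

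The beta chain genes moved apart with NAC. Lamb1 had 382 and 369 CPM in PQ, 323 and 313 CPM in NAC, and 396 and 419 CPM in control libraries. NAC was lower than control (-0.36 ± 0.09, adjusted p = 0.00804), though not past the threshold without library 2 of NAC (0.075) or of control (0.052). PQ was just higher than NAC (0.24 ± 0.09, adjusted p = 0.0481). That call ended when any PQ or NAC library was left out and with library size as the only scaling (adjusted p = 0.057). It was lost in 9 of 14 alternatives in all. PQ against control gave -0.12 ± 0.09 (adjusted p = 0.399). Lamb2, a beta chain of synaptic and vascular laminins (chromosome 9, 108479847 to 108490530), had 40.3 and 49.9 CPM in PQ, 65.8 and 77.3 CPM in NAC, and 43.6 and 40.3 CPM in control libraries. It was higher with NAC than in control (0.77 ± 0.12, adjusted p = 0.000179), PQ was lower than NAC (-0.66 ± 0.12, adjusted p = 0.000394), and PQ and control overlapped (0.11 ± 0.13, adjusted p = 0.616). The ratio of Lamb2 to Lamb1 in TPM was 0.108 and 0.139 in PQ, 0.209 and 0.254 in NAC, and 0.113 and 0.099 in control libraries.

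Lama4, an alpha chain of vascular and mesenchymal laminins, had 55.4 and 51.1 CPM in PQ, 31.1 and 39.9 CPM in NAC, and 51.8 and 48.7 CPM in control libraries. NAC was the low group, below control by a log2 fold change of -0.50 ± 0.12 (adjusted p = 0.00781) and below PQ, with PQ against NAC at 0.58 ± 0.12 (adjusted p = 0.00138). The control comparison missed the threshold without library 1 of NAC (-0.33, adjusted p = 0.16) and with limma on log2 FPKM (adjusted p = 0.064 to 0.15). Lama5, the widespread alpha chain of embryonic and stem cell niches, passed in no comparison and its groups overlapped in all 3, with 260 to 388 CPM over the 6 libraries. Lama2, Lama3 and Lamb3 were at 0.434 TPM or less and passed in none of the tests run on them.

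Among the proteins that link the networks, Agrn (agrin, 68.2 TPM) and Hspg2 (perlecan, 8.73 TPM) passed in no comparison. Agrn ranged over 190 to 255 CPM and Hspg2 over 46.3 to 65.5 CPM. Nid2, one of the nidogens that bridge laminin and type IV collagen, had 9.26 and 8.27 CPM in PQ, 16.2 and 13.1 CPM in NAC, and 14.5 and 11.3 CPM in control libraries. PQ was lowest without overlap, with log2 fold changes of -0.56 ± 0.19 against control (adjusted p = 0.0457) and -0.74 ± 0.18 against NAC (adjusted p = 0.00451). The first call was lost in 8 of 14 alternatives, among them without library 1 of control or either PQ library and by DESeq2 (adjusted p = 0.14). The second was lost in 3 of 14, among them without library 2 of PQ or library 1 of NAC. Of the exonic bases of Nid2, 8.45% lie opposite exons of Rtraf, and whether reads of that gene entered its count was not tested. The expected counts of Nid2 were whole numbers in every library. Nid1 was at 0.145 TPM and was not tested.

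The fibrillar collagens did not move as 1 group. Of 7 tested, PQ against control gave 1 higher and 2 lower, NAC against control 1 higher and 1 lower, and PQ against NAC 1 higher and 2 lower. These are 42.9%, 28.6% and 42.9%, against 17.9%, 17.9% and 30.6% of all genes tested. Col11a1, a chain that controls the width of collagen fibrils (chromosome 3, 114030479 to 114220756), was the most abundant at 79.3 TPM. It had 246 and 215 CPM in PQ, 338 and 347 CPM in NAC, and 189 and 174 CPM in control libraries. All 3 groups were apart, with NAC highest and control lowest. The log2 fold changes were 0.34 ± 0.10 in PQ against control (adjusted p = 0.0192), 0.92 ± 0.10 in NAC against control (adjusted p = 2.4e-06) and -0.57 ± 0.10 in PQ against NAC (adjusted p = 0.000176). The PQ call against control was lost without library 1 of PQ (0.22) or library 2 of control (0.11).

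Type V collagen starts the assembly of fibrils, and its chains differed. Col5a1 had 115 and 111 CPM in PQ, 60.0 and 76.0 CPM in NAC, and 136 and 121 CPM in control libraries, with NAC the low group (-0.92 ± 0.11 in NAC against control, adjusted p = 1.43e-05, and 0.74 ± 0.11 in PQ against NAC, adjusted p = 7.92e-05). PQ against control gave -0.18 ± 0.11 (adjusted p = 0.29). Col5a2 stayed between 75.2 and 89.8 CPM and passed in no comparison. Col5a3, a minor type V chain, had 12.8 and 14 CPM in PQ, 12.6 and 16.4 CPM in NAC, and 18.1 and 19.7 CPM in control libraries. PQ was lower than control (-0.50 ± 0.16, adjusted p = 0.0417), a call lost in 8 of 14 alternatives. Among these were the fits without either PQ library or library 2 of control, DESeq2 (adjusted p = 0.13) and library size as the only scaling (0.061). NAC against control gave -0.38 ± 0.16 (adjusted p = 0.11).

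Col3a1, the main chain of type III collagen in soft connective tissue (chromosome 1, 45311538 to 45349706), had 15.4 and 15.3 CPM in PQ, 24 and 20.5 CPM in NAC, and 29.1 and 28.6 CPM in control libraries. It was lower with PQ than in control by -0.91 ± 0.14 on the log2 scale (adjusted p = 0.00025). The NAC value against control, -0.37 ± 0.14, missed the threshold (adjusted p = 0.0647). PQ was also below NAC (-0.54 ± 0.14, adjusted p = 0.00816), though not past the threshold without library 2 of PQ (0.058) or library 1 of NAC (0.11). The type I collagen genes Col1a1 and Col1a2, the bulk of collagen in skin and bone, were at 0.893 and 0.319 TPM and passed in no comparison.

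Fibril-associated collagens sit on the surface of fibrils. Col12a1, the type XII chain (chromosome 9, 79598987 to 79721141), had 34.8 and 25.4 CPM in PQ, 13.3 and 14.8 CPM in NAC, and 48.7 and 34.4 CPM in control libraries. NAC lay below the other groups (-1.57 ± 0.18 in NAC against control, adjusted p = 5.99e-06, and 1.1 ± 0.18 in PQ against NAC, adjusted p = 0.000168). PQ and control overlapped, with -0.47 ± 0.17 (adjusted p = 0.0567), a value that passed without library 1 of PQ (-0.71, adjusted p = 0.024) or library 2 of control (-0.70, adjusted p = 0.0032). Col16a1, the most abundant of these genes at 60.9 TPM, ranged from 111 to 153 CPM and passed in no comparison. Col9a3, a chain of the cartilage type IX collagen, was under 5 CPM on average and was singled out after its values were seen. Of the other type IX chain genes, Col9a2 had a summed expected count of 2 and Col9a1 was not listed. Col9a3 had 4.27 and 5.70 CPM in PQ, 6.40 and 9.11 CPM in NAC, and 1.82 and 2.08 CPM in control libraries. Both treated groups were above control, by 1.36 ± 0.31 with PQ (adjusted p = 0.00489, or 0.088 without library 2 of PQ) and 1.98 ± 0.29 with NAC (adjusted p = 7.49e-05). Of its exonic bases 6.07% lie opposite Tcfl5, a gene that was not tested.

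Type VI collagen forms beaded filaments near cell surfaces, from the chains of the neighbouring genes Col6a1 and Col6a2 and of other genes. Those other genes were almost absent: Col6a3, Col6a4 and Col6a5 had summed expected counts of 8, 9 and 4, and Col6a6 was not listed. Col6a1 (chromosome 10, 76708792 to 76726044) had 40.7 and 40.4 CPM in PQ, 12.2 and 11.8 CPM in NAC, and 23.2 and 21.9 CPM in control libraries. The groups were far apart against a small spread, with PQ highest and NAC lowest. The log2 fold changes were 0.84 ± 0.13 in PQ against control (adjusted p = 0.000173), -0.91 ± 0.14 in NAC against control (adjusted p = 0.000141) and 1.75 ± 0.13 in PQ against NAC (adjusted p = 3.72e-08), or 3.37-fold. Among the members with a mean of at least 5 CPM this was the largest difference between PQ and NAC.

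Col6a2 (chromosome 10, 76595756 to 76623630), named although its mean was 2.19 CPM and after its values were seen, had 3.43 and 4.28 CPM in PQ, 0.742 and 0.792 CPM in NAC, and 2.22 and 1.66 CPM in control libraries. It had the same order of groups as Col6a1. PQ against NAC gave 2.32 ± 0.38 (adjusted p = 0.000165), a call kept in every alternative, while the calls against control (0.99 ± 0.33 with PQ, adjusted p = 0.0433, and -1.33 ± 0.43 with NAC, adjusted p = 0.0408) were lost whenever a PQ or NAC library, or either control library, was left out (0.056 to 0.32) and by DESeq2 (0.22 and 0.15). The promoter window of Col6a1, chr10:76725995-76726294 on the minus strand of GRCm38.p6, is shown as the only 1 of the 40 member windows with the AP-1 letters, marked in capitals as above.
Col6a1: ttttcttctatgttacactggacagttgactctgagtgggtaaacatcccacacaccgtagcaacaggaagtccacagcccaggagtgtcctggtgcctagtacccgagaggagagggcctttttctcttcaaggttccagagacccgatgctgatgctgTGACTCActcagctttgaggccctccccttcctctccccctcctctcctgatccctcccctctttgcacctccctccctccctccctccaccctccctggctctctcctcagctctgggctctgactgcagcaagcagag

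The window held none of the other letters searched. Col8a1, a chain of the type VIII network collagen, had 13.1 and 12.9 CPM in PQ, 9.36 and 7.82 CPM in NAC, and 16.1 and 15 CPM in control libraries. NAC was lower than control (-0.85 ± 0.17, adjusted p = 0.00135). PQ was higher than NAC (0.60 ± 0.17, adjusted p = 0.0121), a call lost without either PQ library (0.062 and 0.057) or library 2 of NAC (0.11) and by DESeq2 (0.056). PQ against control gave -0.25 ± 0.16 (adjusted p = 0.304).

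The abundant glycoprotein genes all passed as lower with NAC than in control. Sparc (chromosome 11, 55394159 to 55420080) had 905 and 910 CPM in PQ, 472 and 476 CPM in NAC, and 984 and 928 CPM in control libraries. NAC was 2.02-fold lower than control (log2 fold change -1.01 ± 0.09, adjusted p = 2.66e-07), and PQ was above NAC by 0.94 ± 0.09 (adjusted p = 2.82e-07). Against control PQ differed by only -0.08 ± 0.09 (adjusted p = 0.602). Sparc made up 34.3% and 34.5% of the summed member TPM in PQ, 25% and 23.4% in NAC, and 36.4% and 36.7% in control libraries.

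Fn1, fibronectin, which binds integrins and other matrix proteins (chromosome 1, 71585473 to 71653280), had 776 and 675 CPM in PQ, 437 and 501 CPM in NAC, and 976 and 872 CPM in control libraries. The groups did not overlap, with control highest and NAC lowest. The log2 fold changes were -0.35 ± 0.10 in PQ against control (adjusted p = 0.0221), -0.98 ± 0.10 in NAC against control (adjusted p = 2.11e-06) and 0.63 ± 0.10 in PQ against NAC (adjusted p = 0.000121). The PQ call against control was lost without library 2 of PQ (0.28) or library 1 of control (0.12) and by limma on log2(FPKM + 1) (0.071).

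Tnc, tenascin C, a large adhesion-modulating protein of the stem cell niche (chromosome 4, 63959785 to 64047015), had 737 and 716 CPM in PQ, 330 and 357 CPM in NAC, and 565 and 536 CPM in control libraries. Here PQ was highest and NAC lowest, again without overlap. The log2 fold changes were 0.40 ± 0.09 in PQ against control (adjusted p = 0.00396), -0.68 ± 0.09 in NAC against control (adjusted p = 2.65e-05) and 1.08 ± 0.09 in PQ against NAC (adjusted p = 8.53e-08). Thbs1 (thrombospondin 1, an activator of latent TGF-beta) was at 0.329 TPM. Its values were 0.520 and 0.475 CPM in PQ, 1.39 and 1.68 CPM in NAC, and 0.606 and 0.312 CPM in control libraries, and PQ and control were both below NAC (NAC against control 1.71 ± 0.54, adjusted p = 0.0353; PQ against NAC -1.60 ± 0.53, adjusted p = 0.0283). The call of NAC against control was lost in all 6 fits that left out 1 library (adjusted p = 0.055 to 0.24) and in 9 of 13 alternatives in all. That of PQ against NAC was lost in 7 of 14, among them the 4 that left out a PQ or NAC library (adjusted p = 0.09 to 0.16).

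**Figure D4:**
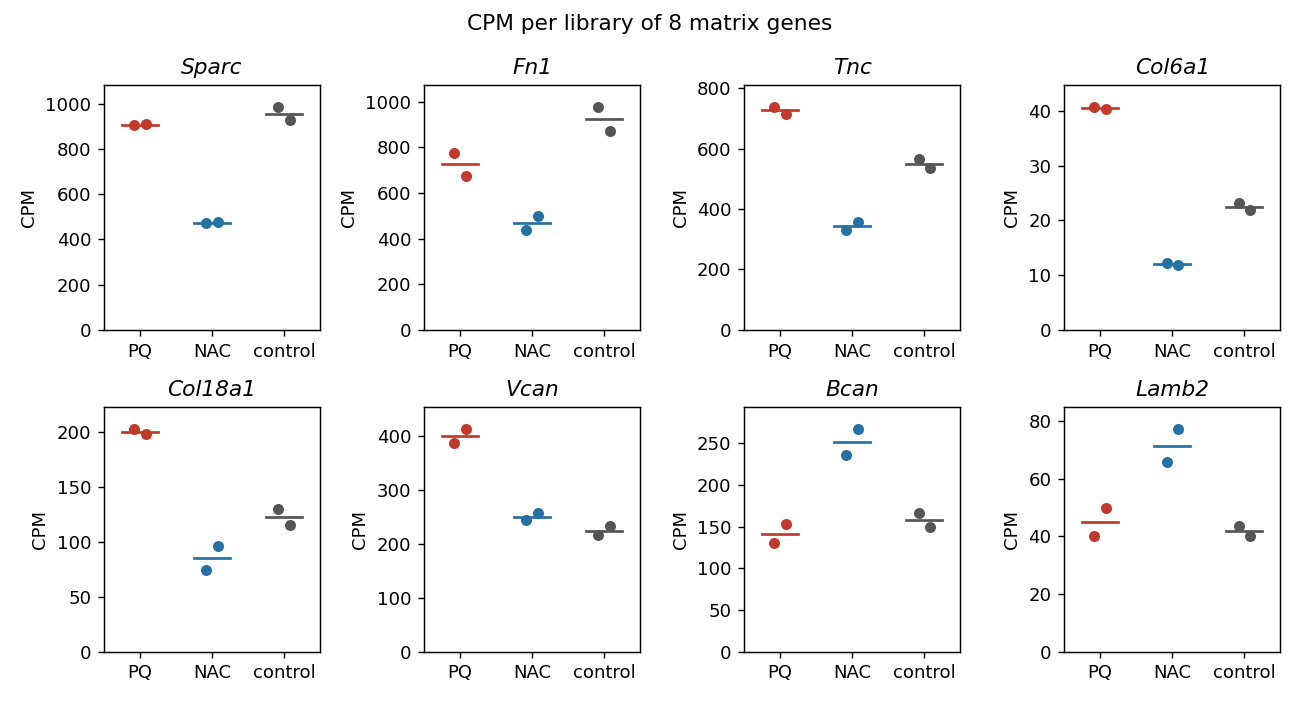
CPM per library (points) and group mean (line) of 8 matrix genes, each with its own linear axis from 0 and with PQ, NAC and control from left to right. Col6a1, Col18a1 and Tnc have PQ above control and NAC below it, Sparc has NAC alone low at 472 and 476 CPM, and Bcan and Lamb2 have NAC alone high.

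Of the 4 proteoglycan genes Bcan and Ncan rose with NAC and Vcan and Dcn rose with PQ. Of the lecticans, chondroitin sulfate proteoglycans that bind hyaluronan, Bcan (brevican) had 130 and 153 CPM in PQ, 236 and 267 CPM in NAC, and 166 and 150 CPM in control libraries. It was higher with NAC than in control (0.67 ± 0.10, adjusted p = 0.00016), with PQ against NAC at -0.83 ± 0.10 (adjusted p = 1.02e-05), and PQ and control overlapped (-0.16 ± 0.11, adjusted p = 0.334). Ncan (neurocan) followed the same order, with 135 and 133 CPM in PQ, 213 and 243 CPM in NAC, and 148 and 141 CPM in control libraries. Its log2 fold changes were 0.66 ± 0.10 in NAC against control (adjusted p = 7.71e-05), -0.77 ± 0.10 in PQ against NAC (adjusted p = 9.45e-06) and -0.10 ± 0.10 in PQ against control (adjusted p = 0.512).

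Vcan (versican, chromosome 13, 89655309 to 89743027), the lectican of migrating and mesenchymal cells, differed from these in which group was high. It had 387 and 414 CPM in PQ, 244 and 258 CPM in NAC, and 216 and 233 CPM in control libraries. PQ was higher than control by 0.84 ± 0.09 on the log2 scale (1.79-fold, adjusted p = 8.59e-06) and than NAC by 0.67 ± 0.09 (adjusted p = 2.04e-05), and NAC against control gave 0.16 ± 0.09 (adjusted p = 0.248). Summed over the 4 proteoglycan genes, the level was 240 and 271 TPM in PQ, 321 and 362 TPM in NAC, and 227 and 214 TPM in control libraries. Dcn (decorin), a small proteoglycan of connective tissue that is also on the fibroblast marker list, averaged 0.897 CPM. Its PQ call (2.32 ± 0.71, adjusted p = 0.031) was lost without library 2 of PQ (0.45) or library 1 of control (0.19).

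Besides those above, Col1a1, Col1a2, Col7a1 and Lama3 were tested and passed in no comparison. The 10 members that were not tested, Lamb3, Col11a2, Col4a4, Col27a1, Lama2, Col23a1, Nid1, Col28a1, Col25a1 and Col20a1, were each at or under 0.434 TPM on average. They had 0 to 13 reads per library. In the fit without the filter, 9 of these 10 passed in no comparison. Col28a1, named after its values were seen, passed in 2, with 0 and 1 reads in PQ, 10 and 10 reads in NAC, and 2 and 1 reads in control libraries. NAC was the high group without overlap (NAC against control 2.55 ± 0.81, adjusted p = 0.0395; PQ against NAC -3.98 ± 0.99, adjusted p = 0.00588), and with so few reads the size of the change is uncertain.

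Matrix proteins are received at the cell surface by integrins, dystroglycan, discoidin domain receptors and related proteins. Of 27 tested genes in a list of matrix receptors, 3 rose and 5 fell in PQ against control, 5 rose and 9 fell in NAC against control, and 8 were higher and 5 lower in PQ against NAC. These are 29.6%, 51.9% and 48.1% of the list, against 17.9%, 17.9% and 30.6% of all genes tested. Dag1, which encodes dystroglycan, the receptor for laminin, agrin and perlecan, had 1030 and 1104 CPM in PQ, 1829 and 1867 CPM in NAC, and 1238 and 1089 CPM in control libraries. It rose with NAC (0.67 ± 0.09, adjusted p = 3.99e-05). So did Ptprz1, a phosphatase and proteoglycan that binds tenascin C (0.75 ± 0.09, adjusted p = 7.02e-06), which was lower with PQ than in control (-0.30 ± 0.09, adjusted p = 0.0237). Itga8, an integrin chain for fibronectin and tenascin C, fell with NAC (-0.71 ± 0.09, adjusted p = 2.5e-05). The fibronectin receptor chain Itga4 was lower than control with both PQ (-0.56 ± 0.10, adjusted p = 0.000974) and NAC (-0.58 ± 0.10, adjusted p = 0.000607). So was the collagen receptor Ddr2, at -0.66 ± 0.11 with PQ (adjusted p = 0.000581) and -0.66 ± 0.11 with NAC (adjusted p = 0.000401). PQ against NAC gave 0.01 ± 0.10 for Itga4 and 0.00 ± 0.11 for Ddr2.

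Collagen chains are hydroxylated, folded by chaperones, carried out of the cell and cross-linked. Of 27 tested genes for these steps, 3 rose and 1 fell in PQ against control, while 1 rose and 10 fell in NAC against control. In PQ against NAC 10 were higher and 0 lower at the threshold by edgeR, and 23 of 27 estimates were above 0. The called shares were 14.8%, 40.7% and 37.0%, against 17.9%, 17.9% and 30.6% of all genes tested, so the PQ count against control is no larger than that of genes at large. P4ha2, a prolyl hydroxylase subunit, had 35.8 and 21.7 CPM in PQ, 7.23 and 12.5 CPM in NAC, and 39.7 and 36.5 CPM in control libraries. It fell with NAC (log2 fold change -1.96 ± 0.22, adjusted p = 6.24e-06). Plod2, a lysyl hydroxylase (-0.87 ± 0.11, adjusted p = 1.15e-05), Sec24d, a coat protein needed to export procollagen (-0.77 ± 0.11, adjusted p = 4.39e-05), and the cross-linking oxidase Loxl2 (-0.88 ± 0.13, adjusted p = 6.56e-05) fell as well. Loxl2 was higher with PQ than in control (0.45 ± 0.12, adjusted p = 0.0134), a call lost in 5 alternatives. Serpinh1, the collagen chaperone HSP47, was the gene of this list that fell with PQ, at 29.4 and 31.1 CPM in PQ, 33.5 and 37.0 CPM in NAC, and 51.8 and 57.8 CPM in control libraries (-0.86 ± 0.12 in PQ against control, adjusted p = 7.22e-05). It is also among the 10 that fell with NAC.

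Of 28 tested matrix proteases and inhibitors, 8 rose and 4 fell in PQ against control, 9 rose and 5 fell in NAC against control, and 10 were higher and 6 lower in PQ against NAC. These are 42.9%, 50% and 57.1% of the list, against 17.9%, 17.9% and 30.6% of all genes tested. Adamts1, a protease that cleaves versican, rose with PQ, with 118 and 110 CPM in PQ, 70.8 and 76.7 CPM in NAC, and 71.6 and 66.1 CPM in control libraries (0.72 ± 0.10 in PQ against control, adjusted p = 8.83e-05). Adamts4, which cleaves lecticans, was higher than control with both PQ (0.66 ± 0.11, adjusted p = 0.000485) and NAC (0.68 ± 0.11, adjusted p = 0.000263), and PQ against NAC gave -0.02 ± 0.11 (adjusted p = 0.934).

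Among 32 tested genes of other matrix proteins, 5 rose and 5 fell in PQ against control, 5 rose and 8 fell in NAC against control, and 12 were higher and 7 lower in PQ against NAC, or 31.2%, 40.6% and 59.4% of the list, against 17.9%, 17.9% and 30.6% of all genes tested. Spp1, osteopontin, had 1226 and 1143 CPM in PQ, 354 and 362 CPM in NAC, and 575 and 591 CPM in control libraries. Like Tnc, Col18a1 and Col6a1 it was higher with PQ (1.02 ± 0.09, adjusted p = 7.34e-07) and lower with NAC (-0.70 ± 0.09, adjusted p = 1.53e-05) than in control. Ecm1 had 45.9 and 48.2 CPM in PQ, 12.9 and 17.6 CPM in NAC, and 25.1 and 24.4 CPM in control libraries, and likewise rose with PQ (0.93 ± 0.14, adjusted p = 0.000162) and fell with NAC (-0.70 ± 0.15, adjusted p = 0.00291). The elastic fibre gene Fbn2 (0.72 ± 0.10, adjusted p = 4.37e-05) and the basement membrane netrin gene Ntn4 (0.98 ± 0.10, adjusted p = 2.07e-06) rose with NAC, and Fbn2 was lower with PQ than in control (-0.35 ± 0.10, adjusted p = 0.0235). Eln, elastin, rose with NAC from a low level, with 0.937 and 0.760 CPM in PQ, 6.49 and 7.53 CPM in NAC, and 1.92 and 1.45 CPM in control libraries (2.04 ± 0.29 in NAC against control, adjusted p = 6.76e-05).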

How the data were processed

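RNA was measured in 6 libraries of cultured mouse neural stem and progenitor cells (3 groups of 2, at 48 h) on the BGISEQ-500, per the labels' protocols, which name both rRNA depletion and oligo dT selection. Tools in the submitters' processing notes are Bowtie2 2.2.5, HISAT2 2.0.4 and RSEM, on mm10, with no roles given. The deposited tables hold expected counts and FPKM values per gene, per the file headers; a gene missing from a table was set to 0. Of 17254 identifiers, 17199 were named.

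After rounding of the expected counts, the test was edgeR's (4.0.16, R 4.3.3) with filterByExpr (minimum count 10, total 15), TMM scaling, and a quasi-likelihood model of 3 group means over all 6 libraries, which leaves 3 residual degrees of freedom. Benjamini-Hochberg adjustment ran over the 12813 genes, with a threshold of 0.05, two-sided; every adjusted p is edgeR's unless another tool is named. A standard error is the size of the log2 fold change over the root of its F statistic. TPM is the deposited FPKM rescaled to the same sum in every library. The code was tested on simulated data. There, 53.7% to 59.7% of 1.5-fold changes and 83.6% to 89.4% of 2-fold changes were called in the right direction. False calls made up 3.6% of the calls in PQ against control, 4.8% in NAC against control and 8.7% in PQ against NAC. Gene coordinates and promoters are from RefSeq on GRCm38, the assembly that mm10 names, and exon overlaps from GENCODE vM21.

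Values per library were given for members at 5 CPM or more on average that passed in any comparison and for the 10 members highest in TPM, and up to 4 genes of smallest p were taken from each pathway list. The members, lists and rules were chosen with earlier results of these data known. Alternatives were DESeq2 1.42.0, library size scaling, no filter, a robust fit, 4 libraries only, limma 3.58.1 on log2 FPKM and leaving out each library. Values of some genes are not reported here.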

Additional observations from a re-analysis of the deposited data

How the results depend on the processing

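Of 55 calls on members in the 3 comparisons, 30 were kept in every alternative other than the block given at the end and 34 in every fit that left out 1 library, and 0 changed sign. Leaving out 1 library gave 7 to 14 calls in PQ against control (5 to 9 higher, 2 to 5 lower) and 5 to 10 lower in PQ against NAC. The number lower in PQ against control was 3 with library size scaling, 3 with DESeq2, and 2 with limma on log2(FPKM + 1) or log2(FPKM + 0.1), against 5. In that order, these settings called 17.9%, 13.0%, 14.5% and 14.2% of all genes tested, in either direction, in PQ against control. With limma on log2(FPKM + 1) over all genes listed, it gave 5 calls, 3 higher and 2 lower, and NAC against control 7 lower, with 4.07% and 5.63% of all genes called. DESeq2 gave no adjusted p for Dcn in PQ against control or Thbs1 in NAC against control. Losses named above for single genes are not always the full list. Col6a2 lost its calls against control in 10 of 14 alternatives with PQ and 11 of 14 with NAC, and Col4a2 its NAC call in 7 of 14. Of 64 pathway values, 45 were kept in the same alternatives, a check chosen after seeing the data.

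Log2 fold changes that changed sign were all of members not past the threshold. Leaving out 1 library in PQ against control gave these lowest and highest values: Col16a1 (-0.08 to 0.03), Col7a1 (-0.49 to 0.37), Lamb2 (-0.06 to 0.25) and Thbs1 (-0.28 to 0.65). Leaving out 1 library in NAC against control gave these lowest and highest values: Agrn (-0.07 to 0.18), Col1a1 (-0.15 to 0.87), Col4a1 (-0.85 to 0.02), Col4a5 (-0.15 to 0.04) and Col5a2 (-0.02 to 0.10). Leaving out 1 library in PQ against NAC gave these lowest and highest values: Col1a1 (-0.20 to 0.75), Col1a2 (-0.95 to 1.06), Col4a1 (-0.36 to 0.51), Col5a3 (-0.30 to 0.09), Col7a1 (-0.78 to 0.08), Hspg2 (-0.04 to 0.20), Lama3 (-0.33 to 0.52) and Lama5 (-0.06 to 0.33). Other settings gave 0.00 for Col16a1 in PQ against control (library size scaling and limma), -0.00 and -0.01 for Col7a1 in PQ against control (limma) and -0.00 for Col4a1 in PQ against NAC (limma). The cause was not tested. No label pairs the libraries, but their numbers run in 2 sets of 3 (8 to 10 and 11 to 13, 1 library of each group). With these sets as a replicate block, an alternative added after seeing the data that leaves 2 residual degrees of freedom, 14 members passed in PQ against control, 16 in NAC against control and 22 in PQ against NAC, of which 14, 16 and 21 were among the 15, 18 and 22 passed without it. All genes gave 14.4%, 14.8% and 27.2% in the block fit. Deviations from the group means of libraries in a set correlated over 12813 genes at 0.11 for PQ with NAC, -0.07 for PQ with control and -0.11 for NAC with control, and the sets were not taken to pair the libraries. With 2 libraries a group, small changes can be missed.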

Other observations

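A list of 23 tested genes covered the making and breakdown of hyaluronan and the making of the chondroitin sulfate chains of matrix proteoglycans. Of these, 5 rose and 2 fell in PQ against control, 4 rose and 6 fell in NAC against control, and 7 were higher and 6 lower in PQ against NAC. These are 30.4%, 43.5% and 56.5% of the list, against 17.9%, 17.9% and 30.6% of all genes tested, and the list itself was not tested. The counts therefore mix both processes: Cemip, Hyal1 and Hyal2 break down hyaluronan. Cemip and Hyal2 are among the genes that rose with PQ, and Hyal1 is among those that fell with NAC. Xylt1, the enzyme that starts chondroitin and heparan sulfate chains on core proteins such as the lecticans, had 15 and 20.4 CPM in PQ, 53.8 and 64.9 CPM in NAC, and 30.6 and 25 CPM in control libraries. It rose with NAC (1.09 ± 0.15, adjusted p = 3.2e-05) and was lower with PQ than in control (-0.65 ± 0.16, adjusted p = 0.00918, lost in 3 alternatives), and PQ was below NAC by a log2 fold change of -1.74 ± 0.15 (adjusted p = 1.68e-07). Chst11, a chondroitin sulfotransferase, rose with NAC (0.94 ± 0.09, adjusted p = 1.4e-06) and with PQ (0.44 ± 0.09, adjusted p = 0.00323). Chst3, another sulfotransferase, fell with NAC (-0.69 ± 0.10, adjusted p = 7.01e-05).

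Of 13 tested TGF-beta ligands, receptors and SMADs, 2 rose and 0 fell in PQ against control, 1 rose and 1 fell in NAC against control, and 2 were higher and 0 lower in PQ against NAC, all by edgeR. Each is 15.4% of the list, no larger a share than the 17.9%, 17.9% and 30.6% of all genes tested. The NAC calls of Tgfbr2 and Tgfbr1 were lost in 5 and 6 alternatives, and the PQ call of Tgfb2 in 4. Tgfbr3, the coreceptor betaglycan, had the smallest p among them in both PQ comparisons, with a log2 fold change of 0.79 ± 0.14 in PQ against control (adjusted p = 0.000891) and 1.09 ± 0.15 in PQ against NAC (adjusted p = 1.77e-05).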
